A study of Mus musculus with 90 samples.

Results

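Voltage-gated potassium channels open when a neuron is depolarised and let potassium leave the cell, which ends the action potential and sets how soon and how often the next one can follow. The genes described here encode their pore-forming and modifier subunits, and they are the protein-coding mouse genes whose symbol is Kcn followed by a, b, c, d, f, g, h, q, s or v and a number. The rule finds 40 genes, all present among the 37991 gene identifiers of the count table, of which 20214 are protein-coding. RNA was measured in amygdala, frontal cortex and hypothalamus of male C57BL/6J resident mice, taken 30, 60 or 120 min after a 5 min exposure. Intruder residents met an unfamiliar BALB/cJ male inside a wire mesh cage, and control residents met that cage holding a paper cup. All residents, controls included, had lived with a female to set up a territory and had lost her 3 h before the test. Region, time and condition form 18 groups with 90 libraries. Each group has 5 libraries except the hypothalamus controls at 30 min with 3 and both frontal cortex groups at 120 min with 6. The 32 animals in the labels gave up to 3 regions each, and 28 gave all of them. The study's text also says that RNA was pooled for library preparation, so p-values measure the spread between these libraries. The column names of the count table carry a tag that the labels do not explain. It reads ISO in all 28 libraries of 30 min and CERV in the 30 of 60 min and the 32 of 120 min. Tag and time therefore cannot be told apart in any comparison with 30 min, while 60 and 120 min share a tag.

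Pore-forming subunits assemble as tetramers within a subfamily. The Kv1 genes (Kcna) carry currents that open near threshold, many of them in axons. Kv2 (Kcnb) carries delayed rectifier current on the cell body, Kv3 (Kcnc) lets neurons fire fast, and Kv4 (Kcnd) carries transient A-type current in dendrites. Kv7 (Kcnq) gives the M-current that muscarinic receptors close. The Kcnh genes are the ether-a-go-go family, Kv10 to Kv12, with slow or unusual gating. The modifier subunits (Kcnf, Kcng, Kcns and Kcnv) form no channel of their own and change the gating of Kv2 when they join it. Changes in these genes alter excitability, and several are epilepsy or ataxia genes.

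Gene reads per library ranged from 38.6 to 58.9 M (M, 1e6 reads) with a median of 49.0 M. Levels are given as CPM, the reads of a gene per 1e6 reads of the scaled library, and levels of different genes are compared only per kb of exon. In bulk tissue, fewer cells of a type and less RNA per cell cannot be told apart. The dissections carried their markers: the summed level of 9 hypothalamic genes was 692 to 1846 CPM in hypothalamus, 9.61 to 88.1 in amygdala and 1.31 to 29.5 in frontal cortex. The summed level of 5 cortical excitatory neuron genes was 1384 to 2028 CPM in frontal cortex, 269 to 1293 in amygdala and 7.84 to 181 in hypothalamus. The upper end of that last range is a single library, hypothalamus control 2 at 120 min, in which the cortical glutamate transporter Slc17a7 stood at 167 CPM against 0.987 to 22.5 in 26 other hypothalamus libraries. A second hypothalamus library, intruder 6 at 120 min, was above those 26 in Pvalb (54.8 CPM against 4.18 to 18.6) and in 2 of 5 thalamic markers, Tcf7l2 (134 against 15.5 to 82.9) and Lhx9 (41.2 against 2.03 to 12.7). Its 3 other thalamic markers lay inside the range of the 26. These 2 libraries are the ones called apart below. The sum of the 5 thalamic markers was 230 CPM in intruder 6 and higher in 2 other 120 min libraries, at 293 in control 6 and 248 in intruder 3, with 180 in control 3 at 30 min. The summed level of 7 striatal genes ran from 196 to 2075 CPM in amygdala and 182 to 1186 in frontal cortex, and that of 6 choroid plexus genes from 17.0 to 1794 and 6.84 to 317. Region counts are therefore also given without the 2 libraries apart, without the 5 hypothalamus libraries high in cortical or thalamic sums (above 100 or 150 CPM), and without the 14 of frontal cortex and amygdala high in striatal or choroid plexus sums (above 1000 or 200 CPM). Library indices differ between the regions apart from 2 that are shared, so index and region cannot be told apart for most libraries.

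Per kb of exon, the most abundant channel gene of frontal cortex was Kcna1, an axonal Kv1 channel, at 54.4 ± 6.68 CPM per kb (SD, n = 32). Kcnh3 at 37.9 ± 3.26 and Kcnf1 at 37.5 ± 3.98 CPM per kb lay within 1 SD of each other, and Kcnv1 stood at 32.7 ± 3.73. In amygdala Kcnf1 was highest at 37.9 ± 7.16 CPM per kb (n = 30), and Kcna1 stood at 29.3 ± 7.50. In hypothalamus Kcnc4 at 23.4 ± 1.69 CPM per kb (n = 28), Kcna6 at 22.4 ± 2.12 and Kcnc1 at 22.3 ± 2.55 overlapped within 1 SD. Kcnh3 and Kcnv1, both high in frontal cortex, stood at 0.913 ± 0.897 and 1.92 ± 0.629 CPM per kb in hypothalamus. At the other end, Kcna7, a channel of muscle, and Kcnv2, a modifier best known from photoreceptors, had too few reads to be tested. Kcna7 had 0 reads in 20 of 32 frontal cortex, 15 of 30 amygdala and 18 of 28 hypothalamus libraries, and Kcnv2 had 0 reads in 29, 12 and 1. The 38 other genes passed the filter of the fit over all libraries. The lowest of them per kb were Kcna10, Kcnh8, Kcnq1, Kcng3 and Kcnb2, none with a region mean above 0.423 CPM per kb.

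**Figure D1:**
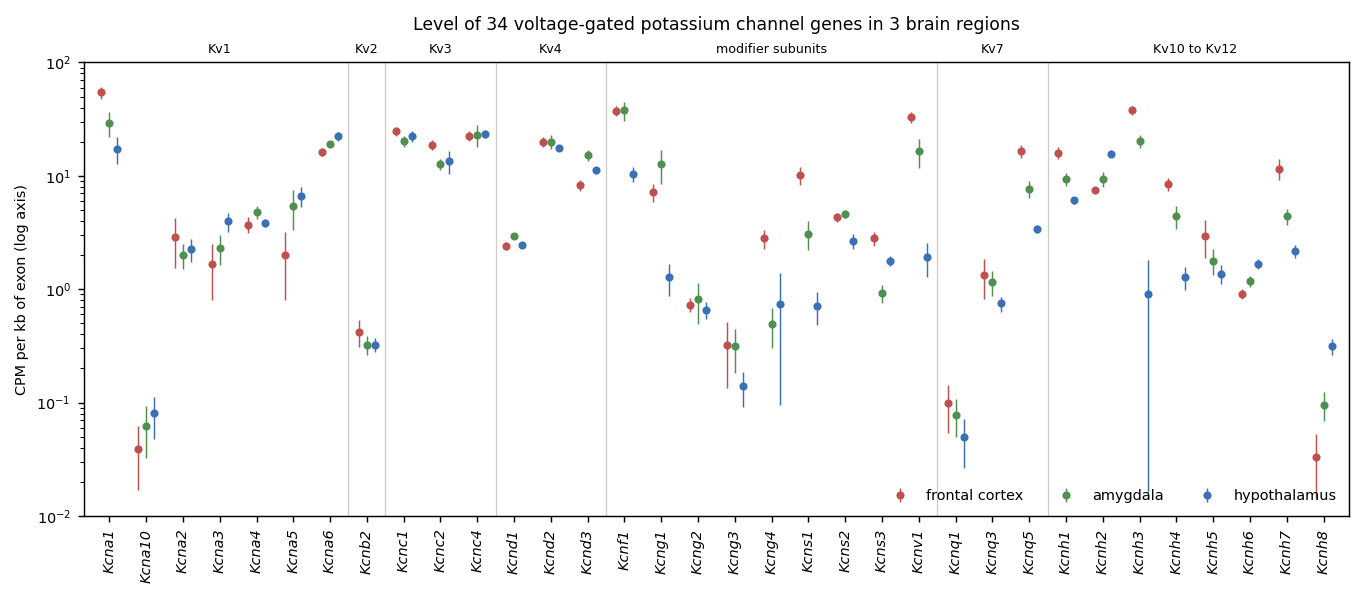
Mean level of 34 tested channel genes in CPM per kb of exon on a log axis, by subfamily; points are region means over 32 frontal cortex, 30 amygdala and 28 hypothalamus libraries and bars are 1 SD. Kcnh3 and Kcnv1 are near the top in frontal cortex and far lower in hypothalamus, where Kcnc4, Kcna6 and Kcnc1 are among the highest.

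The first comparison asked how the channel genes differ between regions over all times and conditions. Of 38 genes tested, 20 differed at least 2-fold between hypothalamus and frontal cortex with an adjusted p below 0.05, of which 15 were lower and 5 higher in hypothalamus. Among all 18337 genes tested the share was 21.8%, with 10% lower and 11.8% higher in hypothalamus. Among the channel genes the shares were 52.6%, 39.5% and 13.2%. These count Kcna10 among the 5 higher, though in fits of single regions it passed the filter on low counts in hypothalamus alone. With no minimum fold 33 of 38 genes passed, or 86.8%, close to the 87.4% of all genes. The median log2 difference of the channel genes was -0.67, against 0.02 for all genes. Library values of hypothalamus and frontal cortex did not overlap for 14 of the 38 genes, beside 27.3% of all genes.

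Members at both ends of that comparison are shown by their promoters. RefSeq entries on GRCm38.p6 cover 25 of the 40 genes with 30 start sites, each from 250 bases before to 50 after the start. Of the genes lower in hypothalamus, Kcnh7 (chr2:63184238-63184537, minus strand), Kcns1 (chr2:164171064-164171363, minus strand) and Kcnh4 (chr11:100759729-100760028, minus strand) are shown. Of those higher in hypothalamus, Kcnh2 (chr5:24329542-24329841, minus strand), Kcnh8 (chr17:52602459-52602758, plus strand) and Kcna3 (chr3:107035912-107036211, plus strand) are shown. Capitals mark the GC box GGGCGG, the core TGACG of the cyclic AMP response element and the TATA box TATAAA, found on either strand.
Kcnh7: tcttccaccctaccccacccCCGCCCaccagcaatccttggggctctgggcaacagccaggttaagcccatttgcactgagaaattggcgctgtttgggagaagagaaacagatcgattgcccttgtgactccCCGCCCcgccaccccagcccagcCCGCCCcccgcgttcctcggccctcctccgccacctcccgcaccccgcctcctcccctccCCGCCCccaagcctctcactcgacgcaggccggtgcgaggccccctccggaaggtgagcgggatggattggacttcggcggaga
Kcns1: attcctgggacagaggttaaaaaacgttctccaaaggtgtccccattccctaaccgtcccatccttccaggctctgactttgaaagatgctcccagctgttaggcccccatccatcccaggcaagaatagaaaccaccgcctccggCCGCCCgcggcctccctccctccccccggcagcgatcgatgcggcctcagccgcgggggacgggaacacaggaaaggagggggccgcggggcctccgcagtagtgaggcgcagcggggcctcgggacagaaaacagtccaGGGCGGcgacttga
Kcnh4: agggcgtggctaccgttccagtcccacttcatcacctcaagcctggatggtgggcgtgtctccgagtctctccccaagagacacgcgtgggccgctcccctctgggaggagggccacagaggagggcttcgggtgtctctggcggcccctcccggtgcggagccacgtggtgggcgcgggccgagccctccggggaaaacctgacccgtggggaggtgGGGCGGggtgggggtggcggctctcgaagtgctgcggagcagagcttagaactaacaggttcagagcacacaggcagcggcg
Kcnh2: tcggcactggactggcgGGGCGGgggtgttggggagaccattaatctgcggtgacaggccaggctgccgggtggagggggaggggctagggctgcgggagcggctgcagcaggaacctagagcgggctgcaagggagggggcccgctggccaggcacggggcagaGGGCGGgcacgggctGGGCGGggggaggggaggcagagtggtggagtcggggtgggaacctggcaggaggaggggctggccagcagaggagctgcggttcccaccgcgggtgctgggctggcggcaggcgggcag
Kcnh8: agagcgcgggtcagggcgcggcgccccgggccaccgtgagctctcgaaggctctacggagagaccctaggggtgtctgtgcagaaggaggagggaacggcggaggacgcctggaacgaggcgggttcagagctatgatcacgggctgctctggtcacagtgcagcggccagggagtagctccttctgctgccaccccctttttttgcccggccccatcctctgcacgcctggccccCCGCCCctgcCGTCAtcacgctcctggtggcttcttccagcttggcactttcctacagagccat
Kcna3: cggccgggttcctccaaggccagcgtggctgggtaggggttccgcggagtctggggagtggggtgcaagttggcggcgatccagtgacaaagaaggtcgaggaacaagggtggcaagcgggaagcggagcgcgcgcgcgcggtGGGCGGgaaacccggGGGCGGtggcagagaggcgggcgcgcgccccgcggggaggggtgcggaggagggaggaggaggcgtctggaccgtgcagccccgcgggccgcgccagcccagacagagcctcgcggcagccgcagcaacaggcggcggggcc
The GC box was present in 18 of the 30 promoters, or 60.0%, against 35.7% of 32851 RefSeq promoters of the same length. TATAAA was in 0 of 30 against 13.6%, TGACG in 23.3% against 20.8%, the full element TGACGTCA in 0 of 30 against 1.79%, and the E-box CANNTG in 70.0% against 72.3%. A match to TGACGTCA also counts for TGACG. The channel promoters had a median GC content of 64.7% and 19.5 CpG, against 52.7% and 7.0 for all promoters. Median GC was 64.7% for genes lower in hypothalamus and 66.0% for genes higher there. The GC box was in 6 of 10 promoters of the former and 3 of 5 of the latter. The latter include Kcna10, which in fits of single regions passed the filter on low counts in hypothalamus alone. The 6 promoters shown, those of the genes with 1 start site and the smallest adjusted p each way, all hold one, while those of Kcnf1, Kcng4, Kcnq5, Kcna5 and Kcna10 do not. A match is a description of the sequence and not a binding site.

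Among the modifier subunits, of 9 tested, 6 were at least 2-fold lower in hypothalamus than in frontal cortex and none higher, with a median log2 difference of -1.86. Kcnv1, which silences or slows Kv2 channels, ranged from 115 to 185 CPM in frontal cortex (median 152), from 44.0 to 122 in amygdala (median 72.4) and from 6.29 to 22.9 in hypothalamus (median 8.35). The hypothalamus libraries all lay under those of both other regions. The log2 difference from frontal cortex was -4.10 ± 0.09 (SE), with an adjusted p of 6.87e-54 in edgeR's quasi-likelihood test with Benjamini-Hochberg adjustment. Kcns1, a Kv2 modifier studied in sensory neurons, ranged from 16.3 to 35.2 CPM in frontal cortex (median 27.3), from 4.48 to 12.5 in amygdala (median 8.07) and from 1.26 to 4.67 in hypothalamus (median 1.83). Its log2 difference was -3.85 ± 0.10 in hypothalamus (edgeR adjusted p = 8.59e-49). Kcns1 thus stood at 3 levels, and the hypothalamus and amygdala ranges overlapped only through hypothalamus control 2 at 120 min, at 4.67 CPM. The 26 hypothalamus libraries other than it and intruder 6 ended at 2.59.

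Kcnf1 and Kcng1 set amygdala with cortex. Kcnf1 averaged 180 ± 19.0 CPM in frontal cortex and 181 ± 34.3 in amygdala, a log2 difference of 0.01 ± 0.05, and 49.8 ± 7.84 in hypothalamus. Kcng1 was highest in amygdala at 56.9 ± 18.6 CPM, against 32.2 ± 5.59 in frontal cortex and 5.75 ± 1.84 in hypothalamus, where its log2 difference from frontal cortex was -2.47 ± 0.11. For both genes no hypothalamus library reached the lowest library of either other region. Kcng4 had another order, at 10.7 ± 2.05 CPM in frontal cortex, 1.87 ± 0.729 in amygdala and 2.83 ± 2.47 in hypothalamus. Intruder 6 at 120 min alone held 14.8 CPM of Kcng4 there, against 1.32 to 4.44 in the 26 libraries other than it and control 2. Kcns3 was lowest in amygdala, at 1.88 to 4.12 CPM, with no overlap with frontal cortex (6.15 to 11.75 CPM) or hypothalamus (4.15 to 6.75 CPM). Kcng3, a gene of at most 2.40 CPM in any library, was lower in hypothalamus by a log2 of -1.11 ± 0.16, by -0.89 without all libraries numbered 1 and by -0.88 without the 14 libraries high in striatal or choroid plexus sums, both short of 2-fold. Kcns2 differed from frontal cortex by -0.68 ± 0.04 and Kcng2 by -0.16 ± 0.10, the latter with an edgeR adjusted p of 0.118.

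The ether-a-go-go family split. Of 8 genes, 5 were at least 2-fold lower in hypothalamus and 2 higher. Kcnh3, a Kv12 channel of forebrain neurons, ranged from 158 to 255 CPM in frontal cortex (median 219), from 93.4 to 150 in amygdala (median 114) and from 2.55 to 30.0 in hypothalamus (median 3.72). No 2 of the 3 ranges overlapped. The difference of hypothalamus from frontal cortex was -5.44 ± 0.15 on the log2 scale (edgeR adjusted p = 2.40e-48), the largest of the 38 genes in size. It was -5.67 ± 0.09 without the 2 hypothalamus libraries that stood apart, since 30.0 CPM was the value of control 2 at 120 min and 9.96 the highest among the 26 others. Kcnh4, its Kv12 relative, averaged 33.7 ± 4.39 CPM in frontal cortex, 17.4 ± 3.98 in amygdala and 5.02 ± 1.12 in hypothalamus, with a log2 difference of -2.74 ± 0.08 (edgeR adjusted p = 1.45e-47).

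Kcnh8, the remaining Kv12 gene, ran the other way at a low level. It ranged from 0.0 to 0.472 CPM in frontal cortex (median 0.140), from 0.242 to 0.706 in amygdala (median 0.418) and from 1.13 to 1.97 in hypothalamus (median 1.45). The log2 difference of hypothalamus from frontal cortex was 3.29 ± 0.12 (edgeR adjusted p = 4.76e-41), and 1 frontal cortex library had 0 reads. Kcnh2, the ERG channel known from the heart's repolarisation, ranged from 30.8 to 40.9 CPM in frontal cortex (median 36.1), 33.3 to 58.8 in amygdala (median 46.0) and 61.0 to 87.0 in hypothalamus (median 76.2). Its hypothalamus libraries all lay above the other regions, with a log2 difference from frontal cortex of 1.08 ± 0.04 (edgeR adjusted p = 1.82e-42). Kcnh6, another ERG gene, differed by 0.88 ± 0.04, short of 2-fold.

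Kcnh7, the third ERG gene, differed in the opposite direction. It ranged from 116 to 263 CPM in frontal cortex (median 173), 51.1 to 86.7 in amygdala (median 66.1) and 26.5 to 45.4 in hypothalamus (median 32.2). The 3 ranges did not overlap. The log2 difference of hypothalamus from frontal cortex was -2.40 ± 0.05, the smallest adjusted p of the 38 genes in that comparison (edgeR, 3.27e-55). The 2 EAG genes were lower too, Kcnh1 by -1.38 ± 0.04 and Kcnh5 by -1.05 ± 0.08, the latter at -0.99 with upper quartile scaling.

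Among the Kv1 genes 3 of 7 tested were at least 2-fold higher in hypothalamus and 1 lower, with Kcna10 among both the 3 and the 7. Kcna5 ranged from 1.18 to 14.9 CPM in frontal cortex (median 4.62), 8.80 to 33.6 in amygdala (median 13.5) and 12.7 to 26.2 in hypothalamus (median 19.6), with a log2 difference of 1.798 ± 0.16 (edgeR adjusted p = 7.50e-18). The highest cortex library lay inside the hypothalamus range. Kcna3, a channel also known from lymphocytes, ranged from 0.432 to 6.75 CPM in frontal cortex (median 3.45), 2.43 to 7.41 in amygdala (median 4.25) and 3.76 to 9.98 in hypothalamus (median 7.53). Its log2 difference of 1.43 ± 0.11 (edgeR adjusted p = 2.76e-20) was 0.89 ± 0.10 over the 30 and 120 min libraries only, under 2-fold. Kcna10 averaged 0.174 ± 0.0701 CPM in hypothalamus and 0.0849 ± 0.0485 in frontal cortex. In fits of single regions it passed the filter on low counts in hypothalamus alone, the region where it was high. Its log2 difference of 1.02 ± 0.17 (edgeR adjusted p = 1.68e-07) was 0.84 ± 0.26 over controls only and 0.99 with the animal as a block. It was 0.995 without all libraries numbered 3 and 0.91 without those numbered 5. These alternatives were all under 2-fold.

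Kcna1 went the other way. It ranged from 178 to 301 CPM in frontal cortex (median 270), 95.5 to 239 in amygdala (median 131) and 56.4 to 182 in hypothalamus (median 80.9). The value of 182 CPM belongs to intruder 6 at 120 min, and the 26 libraries other than it and control 2 ended at 109. The log2 difference of hypothalamus from frontal cortex was -1.66 ± 0.08, and -1.72 ± 0.07 without the 2 libraries that stood apart. Kcna2, which forms axonal channels with Kcna1, averaged 34.4 ± 15.9 CPM in frontal cortex, 24.0 ± 6.15 in amygdala and 26.8 ± 5.99 in hypothalamus. Its difference of -0.23 ± 0.12 between hypothalamus and frontal cortex missed the test (edgeR adjusted p = 0.0631). Kcna4 stood at 18.6 ± 1.61 CPM in hypothalamus and 17.9 ± 2.94 in frontal cortex, and Kcna6 was higher in hypothalamus by 0.46 ± 0.03, short of 2-fold.

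Among the Kv7 genes Kcnq5, an M-current gene, ranged from 95.1 to 164 CPM in frontal cortex (median 131), 42.8 to 80.2 in amygdala (median 58.4) and 19.3 to 30.5 in hypothalamus (median 26.6). No library of one region lay in the range of another. The log2 difference was -2.27 ± 0.05 (edgeR adjusted p = 7.63e-54). Kcnq3, another M-current subunit, differed by -0.76 ± 0.08. Kcnq1, a cardiac and epithelial channel with at most 0.924 CPM in any library, differed by -0.9988 ± 0.15, just short of the 2-fold rule.

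Kcnb2, a Kv2 gene, differed by -0.36 ± 0.06 between hypothalamus and frontal cortex. Of the Kv3 genes, which serve fast-spiking neurons, Kcnc1 differed by -0.14 ± 0.04, Kcnc2 by -0.48 ± 0.05 and Kcnc4 by 0.08 ± 0.05, the last with an edgeR adjusted p of 0.164. None of the 3 Kv4 genes reached 2-fold in any pair of regions. Kcnd3 came nearest, at 145 ± 15.8 CPM in amygdala against 79.3 ± 9.10 in frontal cortex, a log2 difference of 0.88 ± 0.03 with no overlap of libraries.

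Amygdala lay between the other regions for 23 of the 38 genes by mean CPM, and frontal cortex was highest for 22. The order frontal cortex, amygdala, hypothalamus held for 15 genes and the reverse for 8. Against frontal cortex 7 genes differed at least 2-fold, 5 lower and 2 higher in amygdala, where 9.42% of all genes did (3.48% lower and 5.94% higher). With no minimum fold 32 of 38 passed, beside 76.7% of all genes. The 5 lower were Kcng4 (-2.52 ± 0.14), Kcns1 (-1.71 ± 0.09), Kcns3 (-1.61 ± 0.06), Kcnh7 (-1.37 ± 0.05) and Kcnq5 (-1.09 ± 0.05), all log2 differences with edgeR adjusted p between 2.19e-27 and 8.03e-41. The 2 higher were Kcnh8 (1.57 ± 0.13) and Kcna5 (1.51 ± 0.15). The median log2 difference was -0.21 for the channel genes and 0.03 for all genes. Libraries did not overlap for 9 of the 38 genes, beside 6.33% of all genes.

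Against hypothalamus 10 genes differed at least 2-fold, 9 higher and 1 lower in amygdala, or 26.3% against 12.9% of all genes (6.72% higher and 6.2% lower). With no minimum fold 32 of 38 passed, beside 80.1% of all genes. The 6 with the smallest adjusted p among those higher were Kcnv1 (3.11 ± 0.09), Kcnf1 (1.87 ± 0.06), Kcnh3 (4.53 ± 0.14), Kcng1 (3.29 ± 0.11), Kcnh4 (1.78 ± 0.08) and Kcnq5 (1.17 ± 0.05). Kcns1 (2.13 ± 0.10), Kcng3 (1.17 ± 0.16) and Kcnh7 (1.03 ± 0.05) followed, and Kcnh7 came to 0.98 with upper quartile scaling, without the 60 min libraries and without all libraries numbered 1, and to 0.99 without those numbered 2, each under 2-fold. Kcnh8 was the gene lower in amygdala (-1.72 ± 0.10). Without the 2 hypothalamus libraries that stood apart, the counts were 21 between hypothalamus and frontal cortex and 10 between amygdala and hypothalamus. Without the 5 high in cortical or thalamic sums they were 22 and 11, and 9 between amygdala and frontal cortex, of 39 genes tested. Without the 14 high in striatal or choroid plexus sums they were 19, 11 and 9 in the same order. Libraries did not overlap for 13 of the 38 genes, beside 14.8% of all genes. The 3 comparisons share libraries, so their counts are not independent.

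**Figure D2:**
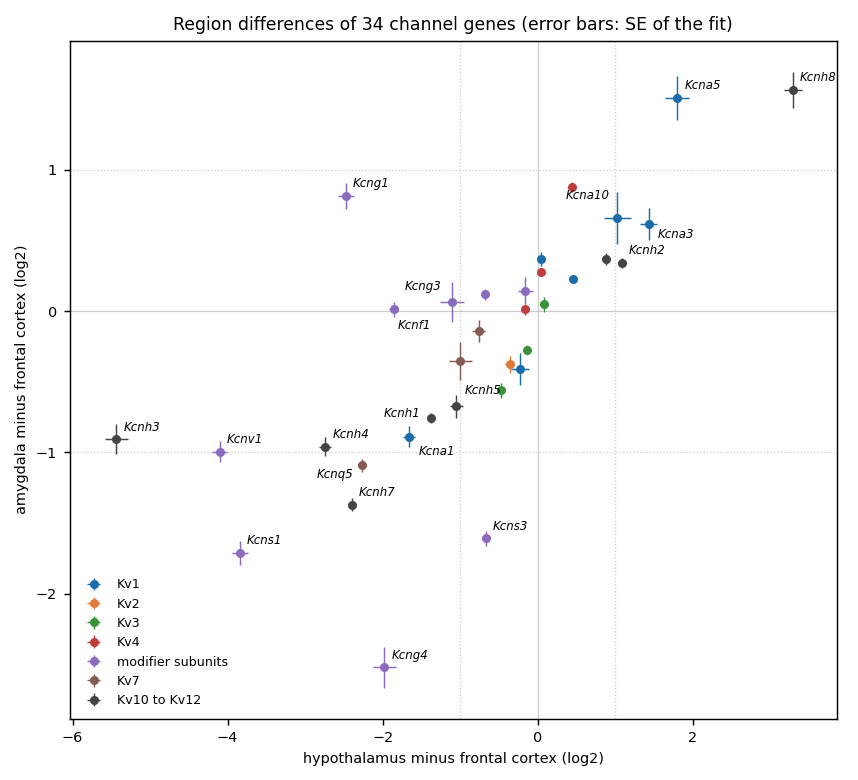
Log2 difference of amygdala from frontal cortex (vertical) against that of hypothalamus from frontal cortex (horizontal) for 34 channel genes, coloured by subfamily, with the SE of the fit as bars and dotted lines at 2-fold; both axes share the frontal cortex libraries. Kcnh3 and Kcnv1 lie farthest to the left, Kcng1 is higher in amygdala and lower in hypothalamus, and Kcnh8 and Kcna5 are higher in both.

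Auxiliary subunits bind the pore-forming proteins in the cell, and 15 were listed with 14 matched by symbol and 13 tested. Between hypothalamus and frontal cortex 7 of 13 differed at least 2-fold, 6 lower and 1 higher, with a median of -0.55, beside 21.8% of all genes (10% lower and 11.8% higher) with a median of 0.02. Kcnab2, a Kv1 beta subunit, averaged 502 ± 34.9 CPM in frontal cortex and 158 ± 17.2 in hypothalamus, a log2 difference of -1.66 ± 0.03 (edgeR adjusted p = 1.36e-59). Kcnip3, a calcium-binding partner of Kv4, averaged 144 ± 17.6 and 47.1 ± 4.29 CPM, a difference of -1.60 ± 0.03 (edgeR adjusted p = 1.08e-56). Potassium channels of other families (inward rectifier, tandem pore domain, calcium- and sodium-activated) were also listed, and 35 of 41 were tested. Of those, 18 differed at least 2-fold, 12 lower and 6 higher in hypothalamus, with a median of -0.29, beside the same shares of all genes. Kcnk1, a tandem pore channel, was lower by a log2 of -1.26 ± 0.03 and Kcnj4, an inward rectifier, by -4.42 ± 0.10 (edgeR adjusted p = 3.95e-54 and 7.29e-54). Between amygdala and frontal cortex 1 of 13 auxiliary subunits (lower, median 0.03) and 6 of 35 other channels (4 lower and 2 higher in amygdala, median -0.19) differed at least 2-fold, beside 9.42% of all genes. Between amygdala and hypothalamus 5 of 13 (4 higher and 1 lower in amygdala, median 0.58) and 8 of 35 (3 higher and 5 lower, median 0.11) did, beside 12.9%.

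The second question was how the levels changed with time after exposure. In frontal cortex controls 15 of 37 channel genes changed over the 3 times, or 40.5%, where 33.4% of 17091 genes did. Between 30 and 60 min 13 genes fell and 2 rose, against 18.1% of all genes lower and 17.2% higher. Between 60 and 120 min 10 rose and 1 fell, against 8.84% higher and 7.03% lower among all genes. Between 30 and 120 min none of the 37 was called by edgeR, where 4.42% of all genes were called (1.94% higher and 2.48% lower). At an unadjusted p below 0.05 there were 4 of the 37, beside 20.2% of all genes. The fall at 60 min took in 3 of 8 Kcnh genes and 2 of 6 Kv1 genes tested, and none of the 3 Kv4 genes.

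Kcna2 ranged from 38.6 to 49.0 CPM in the 30 min controls, from 8.23 to 25.3 at 60 min and from 24.5 to 56.7 at 120 min. The 60 min controls all lay under the 30 min ones, and 1 of them, at 25.3 CPM, reached into the 120 min range. The log2 change was -1.39 ± 0.36 from 30 to 60 min (edgeR adjusted p = 0.00368) and 1.23 ± 0.35 from 60 to 120 min (edgeR adjusted p = 0.0201). Kcna3 stood at 5.01, 4.38, 3.49, 3.80 and 3.65 CPM in the 30 min controls and at 1.15, 1.75, 2.33, 0.698 and 0.648 at 60 min. No 60 min control reached the lowest at 30 min, and the log2 change was -1.66 ± 0.39 (edgeR adjusted p = 0.00143). At 120 min its controls ran from 1.95 to 4.41 CPM.

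Kcnq3, an M-current subunit, fell from 21.4 to 29.1 CPM at 30 min to 7.27 to 14.6 at 60 min, a log2 change of -1.16 ± 0.25 (edgeR adjusted p = 7.51e-04), and ran from 15.0 to 27.7 CPM at 120 min. Its libraries of 60 min lay apart from both other times. Kcnb2 fell by 0.60 ± 0.18, and its call over the 3 times was lost in 4 of 22 alternatives.

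Kcnh7 stood at 215 to 229 CPM in the 30 min controls, 119 to 168 at 60 min and 157 to 203 at 120 min. All 30 min controls were above all others, and the log2 change to 60 min was -0.64 ± 0.11, the smallest adjusted p of the family there (edgeR, 7.69e-05). Kcnh5 stood at 13.5 to 18.4 CPM at 30 min, 5.09 to 10.7 at 60 min and 9.88 to 15.5 at 120 min. Its 60 min controls lay under those of 30 min, with a log2 change of -1.04 ± 0.21 (edgeR adjusted p = 4.92e-04). Kcnc1, a Kv3 channel of fast-spiking cells, fell by 0.31 ± 0.07. Also lower were Kcng3 (-1.48 ± 0.43, its call over the 3 times lost without any 1 of 4 controls), Kcnq5 (-0.32 ± 0.09), Kcnh1 (-0.32 ± 0.08) and Kcnc2 (-0.22 ± 0.07), all log2 changes, and Kcnc2 kept its call over the 3 times in 6 of 22 alternatives. Kcng1 and Kcnc4 rose. Kcng1 stood at 25.2 to 32.4 CPM at 30 min and 33.6 to 50.8 at 60 min with no overlap, a log2 change of 0.47 ± 0.11 (edgeR adjusted p = 0.00194), and fell by 0.37 ± 0.11 from 60 to 120 min. Kcnc4 changed by 0.26 ± 0.07 (edgeR adjusted p = 0.00389).

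**Figure D3:**
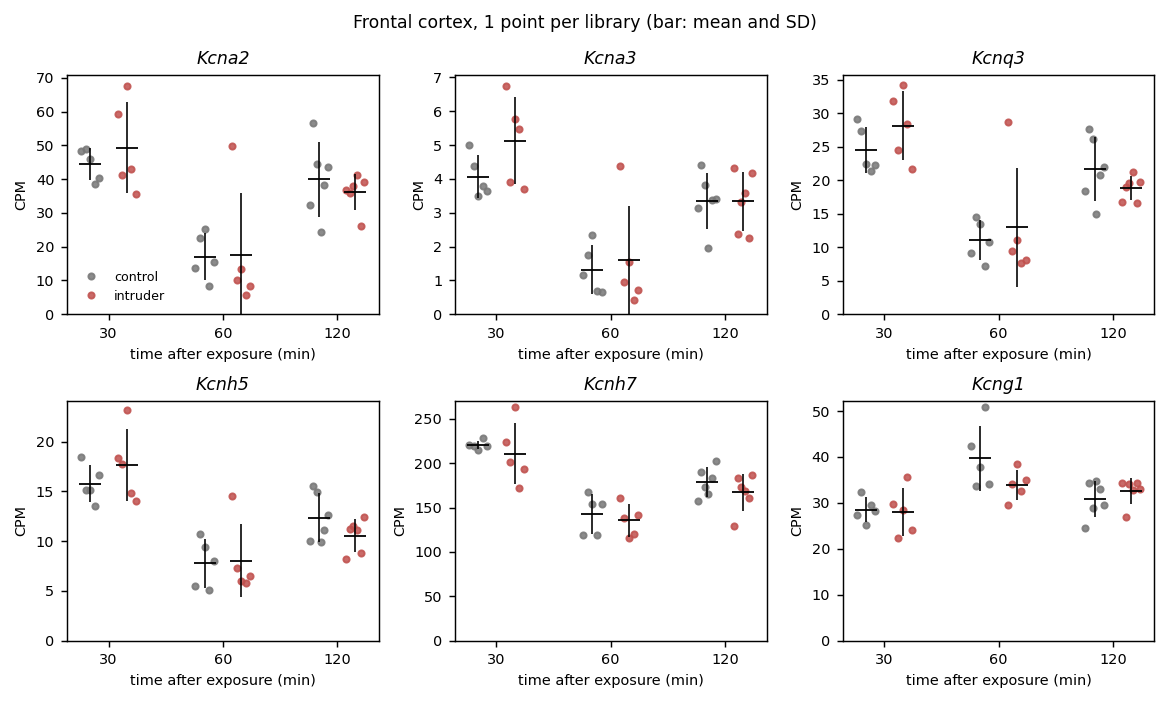
CPM of 6 channel genes in each frontal cortex library by time after exposure in minutes, controls in grey and intruder residents in red, with the group mean and SD as a bar, ended at 0 where the SD exceeds the mean. Kcna2, Kcna3, Kcnq3, Kcnh5 and Kcnh7 have their lowest means at 60 min in both conditions, intruder 1 stands above the other 60 min intruder libraries in each of those genes, and control Kcng1 has its highest mean at 60 min.

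The intruder libraries of frontal cortex gave 16 of 37 genes changing with time, or 43.2%, against 46.1% of all genes. From 30 to 60 min 15 fell and 2 rose, where 45.5% of all genes were called, 23.2% lower and 22.3% higher, and from 60 to 120 min 9 rose, against 12.9% higher among all genes. Of the 17 called between 30 and 60 min, 14 were also among the 15 called in controls, all in the same direction, which is 93.3% of the control calls and 82.4% of the intruder calls. Among all genes 5212 were called in both, 86.2% of the 6046 control calls and 67.0% of the 7780 intruder calls, and 5211 of them had the same direction. Both comparisons set ISO against CERV libraries. Intruder 1 at 60 min did not follow the other 4. It held 49.8 CPM of Kcna2 against 5.78 to 13.5, 4.38 of Kcna3 against 0.432 to 1.53, 28.7 of Kcnq3 against 7.68 to 11.0 and 14.5 of Kcnh5 against 5.74 to 7.33. Those values lie within or near the ranges of the other times. Its choroid plexus sum was 241 CPM, where the group's median was 13.7. Its reads outside annotated genes were 10.3% of the total against 8.63 to 9.54% in the other 4, its ambiguous reads 0.689% against 0.740 to 0.761% and its non-unique alignments 10.3% against 11.3 to 11.5%. The part of these in the result was not tested. Without that library 19 genes changed with time. From 30 to 120 min 3 were called, where 17.7% of all genes were (9.02% higher and 8.66% lower): Kcnh5 (-0.74 ± 0.20), Kcnh7 (-0.34 ± 0.10) and Kcna6 (0.17 ± 0.05), which kept its call over the 3 times in 17 of 22 alternatives.

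Several measures moved with the 60 min libraries of frontal cortex, and their part in the result was not tested. The 30 min libraries carry the tag ISO and those of 60 min CERV, in controls and intruder residents alike, so tag and time cannot be told apart in the fall, while the 60 and 120 min libraries between which 10 genes rose in controls all carry CERV. Reads outside annotated genes were 8.99 to 9.71% of the total in the 60 min controls and 11.0 to 12.7% at 30 min. The summed level of 6 oligodendrocyte genes was 4231 to 6584 CPM at 60 min and 2902 to 3707 at 30 min, that of 5 blood genes 119.5 to 147.9 and 75.05 to 108.1, and that of 5 cortical excitatory genes 1814 to 1987 and 1645 to 1785, none of the markers being at 0. The 30 min controls carry 1 library index, the 60 min controls carry 2 others and the 120 min controls a further 1. Time and index therefore cannot be told apart in the fall or in the rise. A fit with the index as a block could not be made. Within the 1 index that spans 2 times, 60 min controls 5 and 6 held 8.23 and 15.5 CPM of Kcna2 and 120 min intruder libraries 26.0 to 41.2. Condition differs between them as well as time, and this is 1 gene, so these values do not separate time from index.

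Transcript length and base composition of the genes that fell are given as a description, with no test. The 13 genes that fell had a longest transcript of 7760 bases (median, range 1902 to 14845), against 4126 bases (2712 to 7169) for the 22 not called. The ranges overlap. Their median GC content was 49.6% (39.3 to 60.3) against 54.2% (41.0 to 61.5). Across the 37 genes the Pearson correlation of the log2 change with GC was 0.29 and with log2 length -0.28, beside 0.29 and -0.41 across 15011 protein-coding genes. These are correlations across genes that share the same libraries. Kcna3, with 1902 bases and the largest fall, and Kcng3 and Kcnh5, also short, lay away from the trend with length.

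**Figure D4:**
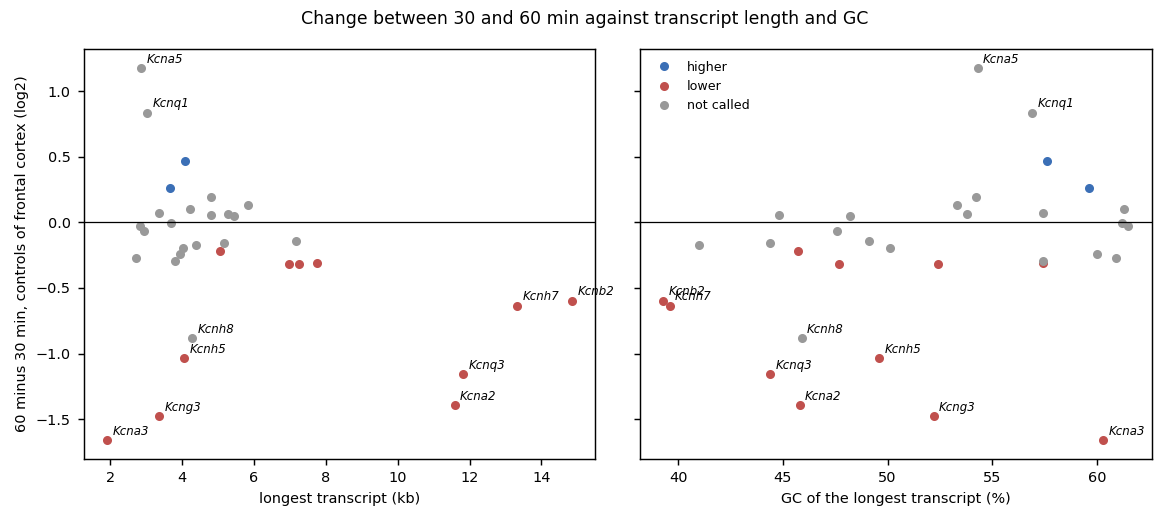
Log2 change from 30 to 60 min in frontal cortex controls against the longest transcript in kb (left) and its GC content in percent (right), 1 point per gene shown, with 11 genes that fell in red, 2 that rose in blue and 20 not called in grey. Kcnb2, Kcnh7, Kcnq3 and Kcna2, the longest shown, all fell, and Kcna3, Kcng3 and Kcnh5 fell with short transcripts.

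Amygdala and hypothalamus gave fewer changes. In amygdala controls edgeR called none of 37 genes over the 3 times, with 5 at an unadjusted p below 0.05 and none by DESeq2, where 0.232% of all genes were called and 10.9% had an unadjusted p below 0.05. In its intruder libraries 5 of 37 were called, or 13.5% against 12.9% of all genes. From 30 to 120 min 6 rose and 1 fell there, against 8.86% of all genes higher and 6.09% lower. Kcna3 stood at 2.81, 3.42, 2.43, 4.27 and 2.47 CPM at 30 min and at 6.78, 7.41, 4.32, 4.82 and 6.26 at 120 min. Those groups did not overlap, and the log2 change was 0.94 ± 0.19 (edgeR adjusted p = 0.00165). Kcnq3 ranged from 10.3 to 16.6 CPM at 30 min and 17.7 to 25.6 at 120 min, a log2 change of 0.74 ± 0.16 (edgeR adjusted p = 0.00328). Kcna2 (0.74 ± 0.19), Kcnb2 (0.51 ± 0.14), Kcnc2 (0.30 ± 0.09) and Kcnh5 (0.61 ± 0.20) rose too, and over the 3 times Kcna2 and Kcnb2 each lost their call in 8 of 22 alternatives. Kcnq1 fell by 1.06 ± 0.27, from 0.328 to 0.463 CPM down to 0.122 to 0.208.

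The 5 calls over the 3 times in amygdala intruder libraries became 0 with the library index as a block, a fit that called 2 of all genes. They became 3 when any 1 of 5 libraries was left out (30 min intruder 1, 2 or 5, 120 min intruder 2 or 6). All 30 min intruder libraries of amygdala share 1 index that none of its 120 min libraries carries, so index and time cannot be told apart there, nor can the tags ISO at 30 min and CERV at 120 min. The summed level of 4 endothelial genes was 147.9 to 178.2 CPM in those 30 min libraries and 75.88 to 118.1 at 120 min. Reads outside annotated genes were 10.8 to 12.0% of the total at 30 min and 12.3 to 13.5% at 120 min, with no overlap. The part of either in the result was not tested. In hypothalamus none of 38 genes was called by edgeR over the 3 times, in controls (0.181% of all genes) or intruder libraries (1.49% of all genes), with 3 at an unadjusted p below 0.05 in each, beside 9.88 and 14.4% of all genes, and none by DESeq2.

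The difference between regions in the time course of controls was itself tested, and 9 of 38 genes passed, or 23.7% against 18.4% of all genes. Among them were Kcnq3, Kcna3, Kcnh7, Kcnh5, Kcng3, Kcnb2, Kcna2 and Kcnh1, with edgeR adjusted p from 1.36e-04 for Kcnq3 to 0.0267 for Kcnh1. Kcnh1 kept its call in 4 of 8 alternatives, with an adjusted p of 0.0680, 0.0737, 0.141 and 0.148 without all libraries numbered 2, 4, 5 and 6, and Kcna2 lost its call without those numbered 2 (edgeR adjusted p = 0.0674). Each of these 8 had fallen in frontal cortex at 60 min. For Kcnq3 the control means at 30, 60 and 120 min were 13.9 ± 1.31, 18.3 ± 4.35 and 18.01 ± 2.83 CPM in amygdala (SD, n = 5 each) and 10.3 ± 0.782 (n = 3), 12.3 ± 1.44 and 10.8 ± 1.28 (n = 5) in hypothalamus. For Kcna3 they were 3.38 ± 0.490, 4.70 ± 1.02 and 4.64 ± 1.04 CPM in amygdala and 7.79 ± 1.78, 8.77 ± 1.10 and 6.87 ± 1.12 in hypothalamus. By their means both genes were highest at 60 min in those regions, within 1 SD of 120 min in amygdala, and lowest at 60 min in frontal cortex.

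The third question was whether seeing the intruder changed the channel genes. No channel gene was called by edgeR in any of the 9 comparisons of intruder with control residents, nor by DESeq2. The share of all genes called was 0.0% in 7 of the 9. At 120 min it was 0.538% for amygdala and 0.192% for hypothalamus. At an unadjusted p below 0.05 there were 4, 1 and 1 channel genes in frontal cortex at 30, 60 and 120 min, 0, 0 and 2 in amygdala and 1, 0 and 6 in hypothalamus. The shares of all genes under that unadjusted threshold were 6.28, 2.54 and 5.34% in frontal cortex, 2.74, 7.13 and 15.1% in amygdala and 1.92, 2.22 and 11.5% in hypothalamus. The medians of the log2 difference lay between -0.06 and 0.06 in all 9. In frontal cortex at 120 min the 6 controls carry 1 library index and the 6 intruder libraries another, so index and condition cannot be told apart. In amygdala only 1 control at 60 min and 1 intruder library at 120 min carry the index of the other condition. The test of a difference of the effect between times found none in any region, where 0.0% of all genes passed in frontal cortex and amygdala and 0.0113% in hypothalamus, with 1, 0 and 1 channel genes at an unadjusted p below 0.05 beside 4.45, 12.1 and 5.67% of all genes. The test between regions found none at any time, where 0.0% of all genes passed at 30 and 60 min and 0.0109% at 120 min, with 0, 0 and 3 at an unadjusted p below 0.05 beside 2.42, 3.15 and 7.53% of all genes. DESeq2 also called none between times and was not run between regions.

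**Figure D5:**
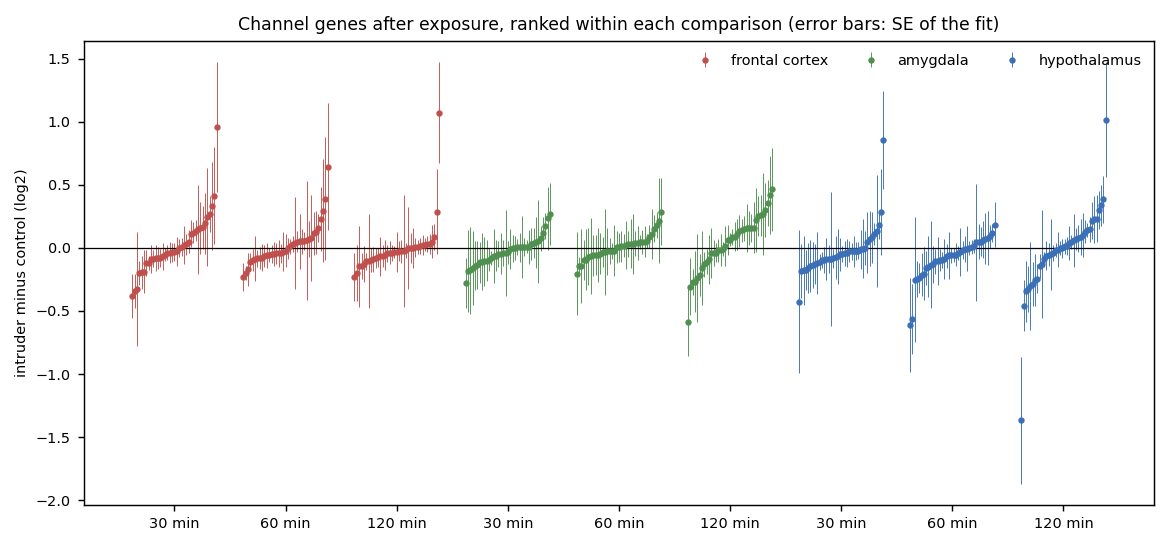
Log2 difference of intruder from control residents for each tested channel gene (37 or 38) in 9 comparisons of region and time, ranked within each, with the SE of the fit as bars. Most points lie near 0 in every comparison, and the 2 farthest at 120 min in hypothalamus are Kcnh3 at -1.37 and Kcng4 at 1.017.

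The single values nearest to a call are given as measurements. In frontal cortex at 60 min Kcna6, a Kv1 channel, ran from 85.4 to 98.5 CPM in intruder and 100 to 113 in control libraries, with no overlap and a log2 difference of -0.20 ± 0.06 (edgeR unadjusted p = 0.00144, adjusted p = 1.00). At 30 and 120 min its intruder and control ranges overlapped. In frontal cortex at 30 min Kcng2 and Kcng4 came nearest, at -0.34 ± 0.13 and -0.38 ± 0.17 (edgeR adjusted p = 0.771 for both), and at 120 min Kcnh8 differed by 1.07 ± 0.40 at under 0.5 CPM (edgeR adjusted p = 0.825). In amygdala at 120 min Kcnh3 stood at 122, 94.2, 97.6, 93.4 and 93.7 CPM in intruder residents and 130, 143, 113, 104 and 114 in controls. The groups overlapped through intruder 1, at a log2 difference of -0.27 ± 0.10 (edgeR adjusted p = 0.196). Kcnq1 followed there with -0.58 ± 0.28.

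In hypothalamus at 120 min 6 of 38 channel genes had an unadjusted p below 0.05, beside 11.5% of all genes, and 5 of them are given with and without a library that stood apart. Kcnh3 stood at 3.12, 30.0, 3.29, 4.79 and 2.55 CPM in controls and 3.42, 4.03, 3.18, 2.97 and 3.40 in intruder residents. Control 2 alone was high, and the log2 difference of -1.37 ± 0.50 (edgeR adjusted p = 0.337) was -0.02 ± 0.31 without it. Control 2 also held 22.9 CPM of Kcnv1 against 6.56 to 9.91 in the 4 other controls, and the difference of -0.46 ± 0.20 was -0.03 ± 0.10 without it. Kcng4 stood at 1.97, 1.77, 1.32, 2.35 and 4.44 CPM in controls and 1.65, 1.60, 4.09, 1.78 and 14.8 in intruder residents. The last value is intruder 6, 4.44 is control 6 and 4.09 is intruder 3, the other 2 libraries of that time with high thalamic sums, and the log2 difference of 1.02 ± 0.46 (edgeR adjusted p = 0.411) was -0.05 ± 0.32 without it. Control 2 was the highest of all 28 hypothalamus libraries for 9 channel genes and the lowest for 1. Intruder 6 was the highest for 10 and the lowest for 4. The share over all genes is not given here, so these counts do not set the channel genes apart. The cortical and thalamic markers of those libraries are as given above. Kcnh2 ran from 61.0 to 77.0 CPM in controls and 70.8 to 87.0 in intruder residents, at 0.15 ± 0.06 (edgeR adjusted p = 0.356). The lowest of these was control 2 and the highest intruder 6, and the difference was 0.09 ± 0.05 without the first and 0.11 ± 0.06 without the second. Kcnf1 differed by -0.24 ± 0.12 and by -0.06 ± 0.08 without control 2.

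The listed auxiliary subunits and other potassium channels gave the same counts after the intruder, 0 called by edgeR in each of the 9 comparisons. Auxiliary subunits numbered 12 or 13 tested and other channels 33 or 34. At an unadjusted p below 0.05 the highest counts were 4 of 13 auxiliary subunits and 5 of 34 other channels, both in frontal cortex at 30 min, beside 6.28% of all genes. Over time in frontal cortex controls 3 of 13 auxiliary subunits and 15 of 34 other channels changed, beside 33.4% of all genes. Between 30 and 60 min Kcnip3 rose by 0.34 ± 0.06 (edgeR adjusted p = 1.67e-04) and Dpp10, a Kv4 partner, fell by 0.27 ± 0.08. Among the other channels 12 fell and 5 rose, beside 18.1% of all genes lower and 17.2% higher, led by the inward rectifier Kcnj16 (-0.36 ± 0.06) and the tandem pore channel Kcnk9 (-1.25 ± 0.27), with edgeR adjusted p of 1.27e-04 and 7.11e-04. In the intruder libraries 9 of the 34 other channels fell and 9 rose over that step, beside 23.2% of all genes lower and 22.3% higher, and 2 of 13 auxiliary subunits fell and 3 rose.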

How the data were processed

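RNA from 3 brain regions was sequenced as stranded single-end mRNA libraries. The authors deposited whole-number counts of reads per gene, 1 table column for each of 90 libraries. The submitters' processing notes name CASAVA 1.8.2, TopHat2 2.0.8, HTSeq 0.6.1, R 3.0.0, edgeR 3.2.4 and the build NCBIM37; the strand setting of the counting is not given in the sources used here. The 5 rows that name no gene were left out; reads outside genes were 8.63 to 14.5% of the total. Groups come from the labels. Symbols, biotypes and exon lengths come from Gencode M21 on GRCm38, another release than the authors' annotation, which can shift levels per kb.

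Genes were tested with edgeR 4.0.16 (quasi-likelihood F test, TMM scaling, filterByExpr, R 4.3.3, limma 3.58.1) and Benjamini-Hochberg adjustment over all genes tested. Regions were compared in 1 fit of 90 libraries, with a call at an adjusted p below 0.05 and 2-fold. Time and intruder comparisons used 1 fit per region. DESeq2 1.42.0, upper quartile scaling, index and replicate blocks and leaving out each library (each replicate number in the fit of all regions) were alternatives. The tests were tested on simulated data. Results of 4 members are not reported here by gene, though the counts over the family hold them. The named genes are the other members, with up to 6 per direction given in full. Where none was called, up to 2 with the smallest p are given, and in some comparisons none. Others are named where a result turned on a library. The members and lists were chosen with earlier results of these data known.

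The animal pairs libraries across regions by the labels, with a median correlation of deviations of 0.02 (amygdala and frontal cortex), 0.14 (amygdala and hypothalamus) and 0.06 (hypothalamus and frontal cortex). No 2 libraries of the same group were duplicates by a chi-square check of the counts of 183 pairs. Libraries of different groups were not compared in that check.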

Additional observations from a re-analysis of the deposited data

Results flagged for a closer look

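Among 102 highest and lowest values tested in 51 groups of the genes shown by library, 9 stood far from the rest of their group. Chance flags about 1 in 20 groups chosen beforehand. Some of these genes were shown because a result turned on a library, so that rate is no yardstick for the 9. In frontal cortex at 60 min, intruder 1 accounted for 4 of them, with 49.79 CPM of Kcna2, 4.382 of Kcna3, 14.54 of Kcnh5 and 28.73 of Kcnq3, each above the 4 other intruder libraries. In frontal cortex at 120 min, intruder 5 was low in Kcna2 at 26.0 CPM and intruder 2 was low in Kcng1 at 27.02 CPM. In hypothalamus, control 2 at 120 min was high in Kcnh3 at 30.01 CPM, intruder 6 at 120 min was high in Kcng4 at 14.78 CPM and control 6 at 60 min was high in Kcna1 at 97.38 CPM.

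The change with time in controls differed between regions for 8 genes given here by edgeR's test of the difference itself. The adjusted p was 0.0001359 for Kcnq3, 0.0001982 for Kcna3, 0.000404 for Kcnh7, 0.0006328 for Kcnh5, 0.002728 for Kcng3, 0.003348 for Kcnb2, 0.006281 for Kcna2 and 0.02674 for Kcnh1. Without all libraries of 1 replicate number, Kcnh1 lost its call for 4 of 6 numbers and Kcna2 for 1.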

How the results depend on the processing

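Of 464 alternative counts over 25 results, 455 stayed within 1.5 times the reported count. With no minimum fold, 33 genes were called between hypothalamus and frontal cortex, 32 between amygdala and frontal cortex and 32 between amygdala and hypothalamus. For amygdala intruder libraries over time the count was 0 with the index block and 3 to 7 when single libraries were left out. For each of 18 results with a count of 0, all 339 alternatives also gave 0. Leaving out all libraries of 1 replicate number at a time gave 19 to 21, 7 to 8 and 9 to 11 genes for those 3 region comparisons and 7 to 10 for the difference between regions in time. Leaving out single libraries gave 11 to 16 and 13 to 19 for time in frontal cortex controls and intruder libraries. The animal as a block gave 19, 8 and 10 genes for the region comparisons. The replicate number does not pair libraries within a region (correlations from -0.43 to 0.49), and the replicate block gave 15 and 15 genes for time in frontal cortex, 0 and 6 in amygdala, 0 and 0 in hypothalamus, and 0 in each intruder comparison. An index block could not be fitted for time in frontal cortex and hypothalamus. The same held for the intruder comparison of frontal cortex at 120 min and for its test between times. The libraries left out for their markers and the 30 and 120 min subset were chosen after seeing the data. Low counts limit Kcna10, Kcnh8, Kcnq1 and Kcng3.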
